A study of Mus musculus with 4 samples.

Results

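The genes described here encode the constitutive proteasome in mouse bone marrow-derived macrophages (BMDMs). They are all genes on the array whose symbol is Psma, Psmb, Psmc or Psmd followed by a number, except the inducible subunits Psmb8, Psmb9 and Psmb10. These were 36 of the 23528 gene symbols on the array, 16 for the core particle (Psma and Psmb) and 20 for the regulatory particle (Psmc and Psmd). RNA was measured on 4 single-colour Agilent arrays, 1 for each condition, and the question was how the proteasome genes stood in each condition relative to wild-type M2 BMDMs. Bone marrow cells of C57BL/6J mice, 10 weeks of age, were grown with L929 supernatant for 6 days and then stimulated for 2 days. M1 BMDMs were wild type and received 20 ng/ml of IFNg with 100 ng/ml of LPS. M2 BMDMs were wild type and received 50 ng/ml of IL-4. The Lamtor1-deficient BMDMs, labelled p18 (2400001E08Rik) -/-, also received 50 ng/ml of IL-4. The Torin1-treated BMDMs were wild type and received 50 ng/ml of IL-4 with 250 nM of Torin1, an ATP-competitive inhibitor of mTOR. Lamtor1 anchors the Ragulator complex that brings mTORC1 to the lysosome. The study deleted it with floxed alleles and LysM-Cre, which acts in myeloid cells, and its littermate controls also carried the floxed alleles.

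The proteasome degrades proteins that are tagged with ubiquitin. Its core particle is a barrel of outer alpha rings, which gate the entry, and inner beta rings, where Psmb5, Psmb6 and Psmb7 cut the substrate. The regulatory particle sits on the end of the barrel. Its base holds the Psmc ATPases, which unfold the substrate, and scaffolds that bind ubiquitin. Its lid holds Psmd14, the enzyme that removes the ubiquitin chain. In cells exposed to IFNg, the catalytic subunits are known to be exchanged for Psmb8, Psmb9 and Psmb10, which form the immunoproteasome of antigen presentation. The subunits are needed in fixed proportions, and many of their genes are known targets of the transcription factor Nfe2l1, which binds antioxidant response elements.

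Because the subunit genes are described together below, their promoters were searched for the letters of that element, TGACNNNGC, on both strands. A RefSeq promoter on GRCm38.p6, running from 250 bases before to 50 bases after the start of the gene, was found for 29 of the 36 genes. The letters were in 5 of these 29 (17.2%), against 14% of the 27025 genes with a promoter in the table. The share was 2 of 12 for the core and 3 of 17 for the regulatory particle. The letters CCAAT, also on both strands, were in 12 of the 29 (41.4%), against 41.1% of all genes. Over all 29, both shares were near those of all promoters. By particle, CCAAT was in 7 of 12 core (58.3%) and 5 of 17 regulatory promoters (29.4%). The windows around the TGACNNNGC matches are printed on the strand of the gene, with the matched letters in capitals. In Psmc6 and Psmd12 the match is on the opposite strand, so its reverse complement is in capitals.
Psmb5 (chr14:54618024-54618052, - strand): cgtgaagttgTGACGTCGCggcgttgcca
Psmb6 (chr11:70525338-70525366, + strand): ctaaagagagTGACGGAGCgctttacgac
Psmc6 (chr14:45329587-45329615, + strand): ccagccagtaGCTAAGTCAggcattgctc
Psmd9 (chr5:123228149-123228177, + strand): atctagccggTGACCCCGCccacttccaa
Psmd12 (chr11:107479278-107479299, + strand): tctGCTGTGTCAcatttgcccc
The matches began 47 bases before the start of Psmb5, 9 before Psmb6, 227 before Psmc6, 31 before Psmd9 and 247 before Psmd12.

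Of the 36 genes, 34 were well above background on all 4 arrays by the call of the scanner software, 14 of the core and 20 of the regulatory particle. The other two belong to the core and are known from other tissues. Psmb11, a subunit of the thymus, was not well above background on any array. Psma8, a subunit of the testis, was well above background on the Lamtor1-deficient and Torin1-treated arrays only, at least 2.71-fold and at least 1.19-fold higher than in M2, where its own signal set the bound. Before scaling, its intensity was 24.2 with Torin1 and 25.7 in M2, so the direction of the smaller difference rests on the scaling. The 36 genes had 44 probes, 28 genes with 1 probe and 8 with 2, and the brighter probe stands for the gene. Each probe was a single spot, with no outlier or saturated spot. Signals are given as multiples of the 75th percentile of the array ("normalized signal") and are not comparable between probes. Where 4 signals follow each other, they are those of M1, M2, Lamtor1-deficient ("without Lamtor1") and Torin1-treated ("with Torin1") BMDMs, in this order.

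There was 1 array per condition, so no test and no p-value was possible, and differences are given as values. The only error that could be measured was technical, from probes spotted at least 8 times. It came to an SD of 0.105 for a log2 ratio of M1 over M2, 0.0891 for Lamtor1-deficient over M2 and 0.0949 for Torin1-treated over M2, and it leaves out the variation between cultures. The 3 ratios also share the M2 array. On the Lamtor1-deficient array the normalized signal of Lamtor1 itself was 2.34% of that in M2. All 6 macrophage markers were well above background on all 4 arrays, and their normalized signals summed to 421 in M1 and to 639.6 to 774 on the others, with Csf1r as the largest term on every array. The markers did not move together. Emr1, which encodes F4/80, gave 54.4, 111.6, 18.8 and 15.9, and its log2 ratio over M2 was -2.57 without Lamtor1 and -2.81 with Torin1. Cd68 and Mertk were above M2 on all the other arrays, at 0.34 to 0.90. Csf1r was below M2 on all of them, at -1.24 in M1, -0.44 without Lamtor1 and -0.27 with Torin1. In the same order Itgam was at -0.34, -0.81 and 0.15, and Lyz2 at -0.61, 0.70 and 0.12. In M1, 4 of the 6 markers were below M2. Of the 6 neutrophil markers, Ly6g is not on the array and the Elane spot was an outlier on the Torin1-treated array, with signals of 52.1 in M1, 12.4 in M2 and 18.6 in Lamtor1-deficient BMDMs. The other 4 (Mpo, Camp, Ngp, Ltf) summed to a normalized signal of 10.55 in M2, and to 0.355 to 0.670 on the other arrays. The 6 fibroblast markers summed to 15.98 in M1, 43.2 in M2, 55.9 on the Lamtor1-deficient and 15.3 on the Torin1-treated array. Col1a2 was the largest term except in M1, where it was Dcn, the only marker of the 6 above M2 on that array (a log2 ratio of 2.55). The 5 lymphocyte markers summed to 15.02, 12.9, 13.1 and 7.43 in that order, with Ms4a1 not well above background on any array. The median log2 ratio over M2 of 8 proliferation genes was -2.01 for M1, -0.94 for the Lamtor1-deficient and -1.43 for the Torin1-treated array. The part of other cells and of proliferation in the proteasome signals was not tested. In bulk RNA, fewer cells of a type and less RNA per cell cannot be told apart.

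Relative to all genes on the arrays, the proteasome genes were higher in M1, close to M2 in Lamtor1-deficient and lower in Torin1-treated BMDMs, and this order held for the medians of the core and of the regulatory particle. For M1 over M2 the median log2 ratio was 0.55 for the 16 core genes and 0.45 for the 20 regulatory genes. For Lamtor1-deficient over M2 it was 0.18 and 0.10, and for Torin1-treated over M2 it was -0.52 and -0.51. Without Psma8 and Psmb11, which were not well above background in M2, the core median was -0.59 for Torin1-treated over M2 and the same in the other two comparisons. Over all 12922 genes that passed this background call on every array, the median was 0.04, 0.08 and 0.02 in these comparisons. The core median thus differed from the regulatory median by 0.10, 0.07 and -0.01 in these comparisons, or by -0.08 in the last over the 14 detected core genes. Over the standard subunits, it differed by 0.01, 0.07 and -0.06. These leave out Psma8, Psmb11 and the assembly chaperones Psmd5, Psmd9 and Psmd10. With 1 array per condition these differences have no error of their own. The sign for M1 depended on the scaling. With each array shifted to its median in place of its 75th percentile, the median of the 34 detected genes was -0.32 instead of 0.50, and that of all genes was -0.78 instead of 0.04. Relative to all genes, the 34 stood 0.46 higher under both scalings, which had to agree because such a shift moves all genes of an array alike. With a different background correction (normexp), they stood 0.29 higher. Values below use the 75th percentile unless another scaling is named.

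**Figure D1:**
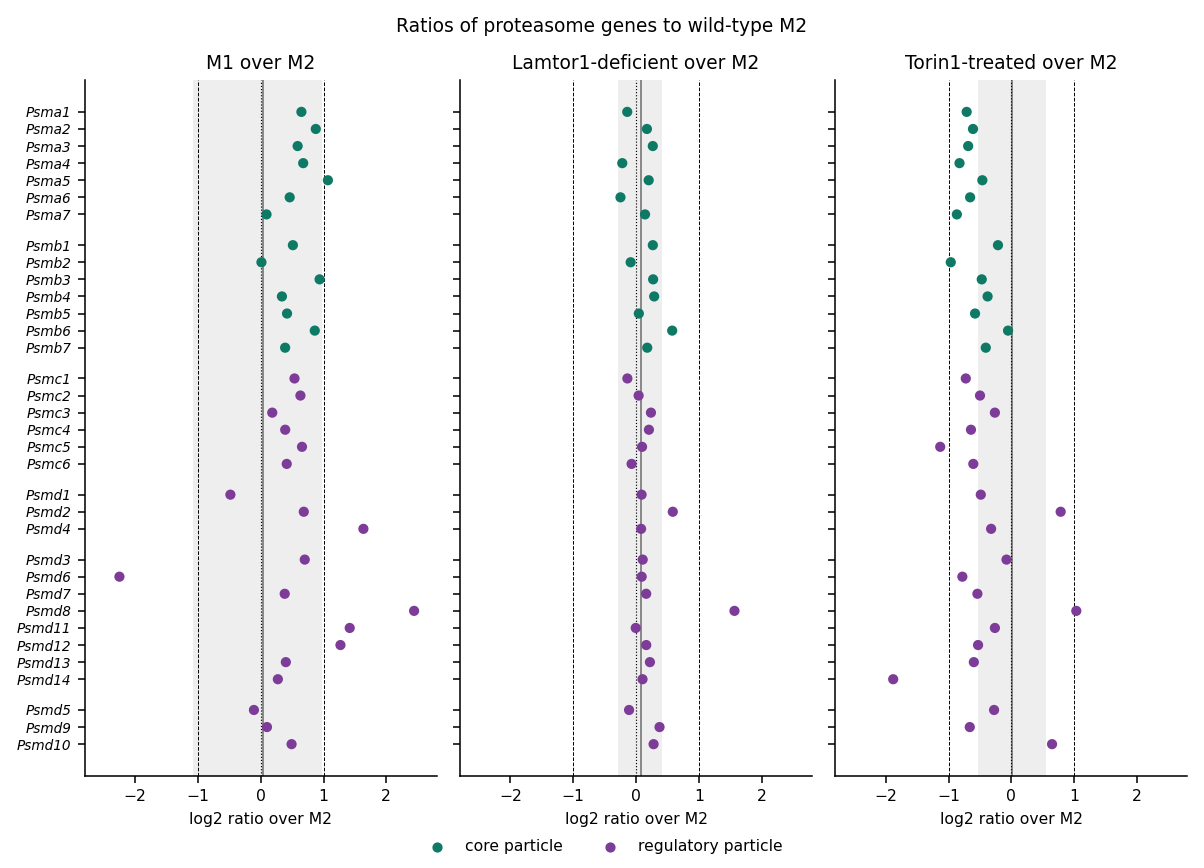
Log2 ratio over M2 of the 34 detected proteasome genes, for M1, Lamtor1-deficient and Torin1-treated BMDMs (x axes), with 1 point per gene. The grey band and line are the quartiles and the median of all 12922 genes, the dotted line marks 0 and the dashed lines mark 2-fold. Most points lie right of the line in M1, near it in Lamtor1-deficient and left of it in Torin1-treated BMDMs.

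The ratios of the proteasome genes were also less spread than those of the genes around them. In M1 the middle of the 34 genes, from the lower to the upper quartile, ran from 0.35 to 0.70, while that of all genes ran from -1.06 to 0.96. In Torin1-treated BMDMs it ran from -0.68 to -0.29, against -0.51 to 0.54. Genes within the brightness range of the proteasome genes, 5830 in number, had quartiles of -1.02 and 0.81 in M1 and of -0.55 and 0.45 after Torin1. In M1 the SD over genes was 0.31 for the 14 detected core genes and 0.91 for the 20 regulatory genes, or 0.52 without Psmd6 and Psmd8.

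In M1, 31 of the 34 detected genes had a log2 ratio above 0, and 30 stood above the median of all genes. With each array shifted to its median, 8 had a ratio above 0 and the same number, 30, stood above the median of all genes. The 3 below 0 were Psmd6, Psmd1 and Psmd5. Of the 34, 5 were at least 2-fold higher, where 24% of all genes were, and 1 was at least 2-fold lower, where 25.9% of all genes were. At 1.5-fold there were 15 higher and 1 lower, against 35.3% and 33.9% of all genes. The share past 2-fold was thus below that of all genes in both directions.

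After Torin1 treatment, 31 of the 34 genes were below the M2 level, including all 14 of the core, where 6349 of all 12922 genes were. With the 75th percentile taken over detected probes only, 29 of the 34 were below it and Psmb6 was not (0.03). The exceptions among the 34 under the scaling used here were Psmd8, Psmd2 and Psmd10. At 1.5-fold, 15 were lower and 3 higher, against 22.8% and 23.2% of all genes. At 2-fold, Psmd14 and Psmc5 were lower and Psmd8 was higher, against 12.7% and 11.6% of all genes.

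In Lamtor1-deficient BMDMs, 26 of the 34 genes were above and 8 below the M2 level, and most were close to it. Above M2 were also 7377 of all 12922 genes and 3684 of the 5830 of like brightness, and 23 of the 34 stood above the median of all genes. Psmd8 was at least 2-fold higher, where 7.08% of all genes were, and no gene was at least 2-fold lower, where 7.34% of all genes were. Psmd2 was the other gene past 1.5-fold, where 15.9% of all genes were higher. Under quantile normalization the median of the 34 moved to -0.03, with 16 above and 18 below M2, so the small difference from M2 had no settled sign.

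Torin1-treated and Lamtor1-deficient BMDMs could also be compared without the M2 array. The median log2 ratio of Torin1-treated over Lamtor1-deficient was -0.65 for the core and -0.56 for the regulatory particle, against -0.08 for all genes. Of the 34 genes, 32 were lower in Torin1-treated BMDMs, all but Psmd10 (0.37) and Psmd2 (0.20), where 7066 of all 12922 genes were lower. The other probe of Psmd10 was at -0.50, so its exception depended on the probe. At 1.5-fold, 20 were lower and 0 higher, against 25.3% and 19.4% of all genes. At 2-fold, Psma7, Psmc5, Psmd9 and Psmd14 were lower, against 12% of all genes, and none was higher, against 9.78%. Psmd9 was past 2-fold by its brighter probe only, with the other at -0.05.

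**Figure D2:**
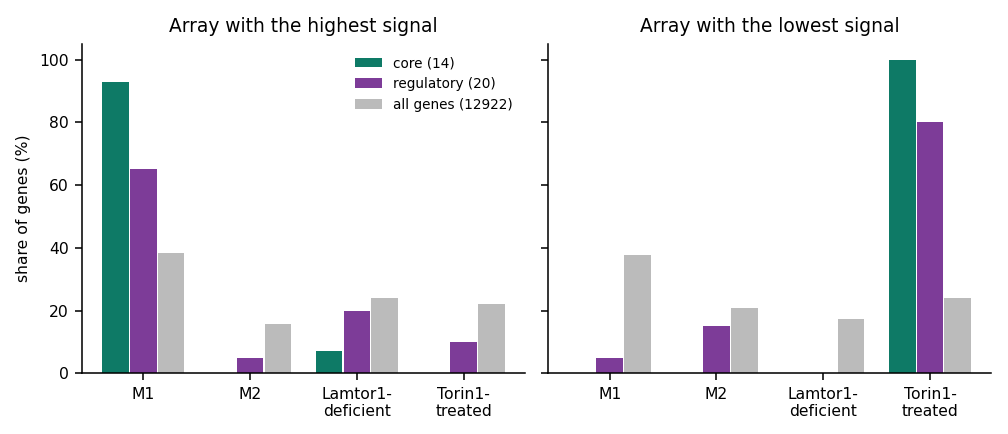
Share of genes (y axis, percent) whose highest signal (left) or lowest signal (right) was on each of the 4 arrays after the shift to the 75th percentile, for the 14 core and 20 regulatory genes detected on every array and for all 12922 genes so detected. M1 was the highest array for 92.9% of core and 65% of regulatory genes, and Torin1-treated was the lowest for 100% and 80%.

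The order of the arrays was shared by most of the genes. M1 had the highest signal for 26 of the 34, against 38.3% of all genes, and Torin1-treated BMDMs had the lowest for 30, against 24.1% of all genes. Both held at once for 25 of the 34 (73.5%), against 14.1% of all genes, with 13 of 14 core genes and 12 of 20 regulatory genes. With each array shifted to its median, M1 was the highest array for 3 of the 34, while Torin1-treated was the lowest for 27. That shift also moved the median log2 ratio of all genes over M2, to -0.78 in M1 and -0.23 with Torin1. Shares of all genes by highest or lowest array were not counted under it, so these counts of 3 and 27 have no share beside them.

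**Figure D3:**
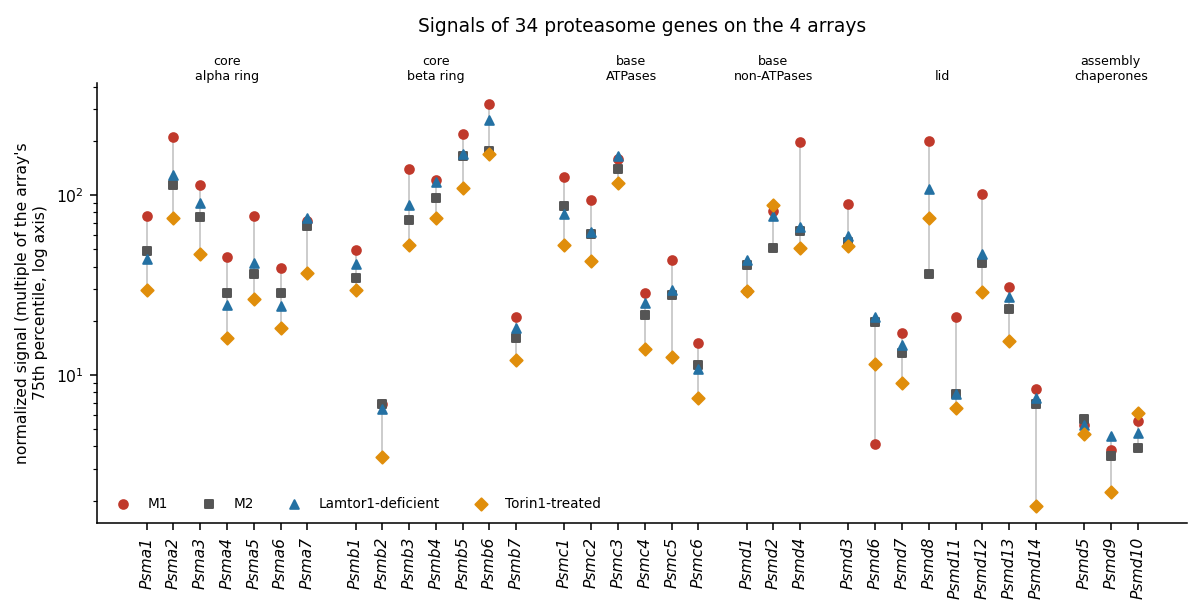
Normalized signal (y axis, log scale, multiples of the 75th percentile of the array) of the 34 detected genes on the 4 arrays, grouped by their place in the proteasome, with 1 point per array and a grey line over the range of a gene. Torin1-treated points lie at the bottom of nearly every gene, and Psmd6, Psmd8 and Psmd14 have the widest ranges.

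In the alpha ring of the core, the gated entrance to the chamber, every detected gene lay on the same side of M2 after Torin1. In Torin1-treated BMDMs all 7 detected alpha genes were lower than in M2, with a median log2 ratio of -0.69 and a range from -0.87 (Psma7) to -0.46 (Psma5). In M1 they ranged from 0.09 (Psma7) to 1.07 (Psma5), and in Lamtor1-deficient BMDMs from -0.25 (Psma6) to 0.27 (Psma3). Psma5 gave normalized signals of 76.1 in M1, 36.2 in M2, 41.7 without Lamtor1 and 26.3 with Torin1. Psma7 gave 71.9, 67.5, 74.5 and 37.0 in the same order. Psma7 thus differed little between M1, M2 and Lamtor1-deficient BMDMs and was low in Torin1-treated BMDMs alone, while Psma5 was high in M1. Psma2 gave 209 in M1, 114 in M2, 128 without Lamtor1 and 74.5 with Torin1. Psma3 gave 113, 75.3, 90.6 and 46.7. For both, the Lamtor1-deficient array lay between M2 and M1. The signals of Psma1 were 76.1, 48.5, 44.1 and 29.6, those of Psma4 were 45.4, 28.4, 24.4 and 16.04, and those of Psma6 were 39.3, 28.6, 24.0 and 18.1. In these 3 genes the Lamtor1-deficient array lay below M2 and above Torin1-treated.

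Among the catalytic subunits of the beta ring, Psmb5 carries the chymotrypsin-like, Psmb6 the caspase-like and Psmb7 the trypsin-like activity. Psmb5 (chr14:55232957-55233016, - strand, mm9, probe position) gave 219 in M1, 164 in M2, 169 without Lamtor1 and 109.7 with Torin1. Psmb6 (chr11:70341093-70341152, + strand, mm9) gave 319.8, 176, 262 and 169.8. Psmb7 gave 21.1, 16.1, 18.2 and 12.2. All 3 were highest in M1 and lowest after Torin1, but Psmb6 was nearly equal in M2 and Torin1-treated BMDMs (log2 ratio -0.05) and was the detected core gene farthest above M2 in Lamtor1-deficient BMDMs (0.58). The structural subunits of the ring behaved alike with a single departure. Psmb1 gave 49.2, 34.5, 41.5 and 29.7, and Psmb3 gave 139, 72.6, 87.7 and 52.4. Psmb4 gave 122, 96.2, 118 and 74.0. Psmb2 gave 6.91, 6.85, 6.46 and 3.51. Psmb2 was level between M1 and M2 (0.01) and had the lowest Torin1 ratio of the core (-0.96).

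The 6 base ATPases, which form the ring that pulls the substrate into the core, all stood above the median of all genes in M1 (0.18 for Psmc3 to 0.66 for Psmc5) and below it after Torin1 (-1.13 for Psmc5 to -0.26 for Psmc3). In Lamtor1-deficient BMDMs they ranged from -0.14 (Psmc1) to 0.24 (Psmc3). Psmc5 (chr11:106124192-106124376, + strand, mm9) gave 43.7 in M1, 27.7 in M2, 29.6 without Lamtor1 and 12.6 with Torin1. Psmc3 gave 159, 139.8, 165 and 117. Psmc5 therefore had the largest and Psmc3 the smallest difference in both M1 and Torin1-treated BMDMs. Psmc1 gave 126, 86.7, 78.8 and 52.4, Psmc2 gave 93.8, 60.5, 62.3 and 42.8, and Psmc4 gave 28.4, 21.6, 24.95 and 13.9. Psmc6 gave 15.0, 11.3, 10.74 and 7.41. In each of these 4, M1 was the highest and Torin1-treated the lowest array.

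The remaining base subunits diverged. Psmd4, a ubiquitin receptor, gave 196 in M1 against 63.0 in M2, 66.6 without Lamtor1 and 50.4 with Torin1, a log2 ratio of 1.64 for M1 over M2. Psmd2, a scaffold that docks ubiquitin receptors and shuttle factors, gave 81.7, 50.8, 76.2 and 87.5 in the order M1, M2, Lamtor1-deficient, Torin1-treated. Psmd2 was thus lowest in M2 and 0.79 higher on the log2 scale after Torin1, opposite to most of the particle. Psmd1, the other large scaffold, gave 29.3, 40.9, 43.5 and 29.2. It was low in M1 and in Torin1-treated BMDMs alike, with log2 ratios over M2 of -0.48 and -0.49.

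The lid held the widest differences. Psmd8, which joins the lid late in its assembly, gave 199 in M1, 36.5 in M2, 108 without Lamtor1 and 74.8 with Torin1 (chr7:29961170-29962121, - strand, mm9). Its log2 ratios over M2 were 2.44, 1.57 and 1.03, and all 3 rest on the same low M2 signal of a single spot. Without the M2 array, Psmd8 was 0.53 lower on the log2 scale in Torin1-treated than in Lamtor1-deficient BMDMs, near the median of the particle. Psmd6, a structural subunit (chr14:14946703-14946762, - strand, mm9), gave 4.13 in M1, 19.6 in M2, 20.9 without Lamtor1 and 11.4 with Torin1. It was the only one of the 34 with its lowest signal in M1, at a log2 ratio of -2.25. Psmd14, the deubiquitinating enzyme (chr2:61599058-61599117, + strand, mm9), gave 8.35, 6.91, 7.42 and 1.88. Its log2 ratio of -1.88 for Torin1-treated over M2 was the lowest of the 34 genes, while Psmd7, its structural partner, gave 17.2, 13.2, 14.7 and 9.06, a log2 ratio of -0.54. Each of Psmd6, Psmd8 and Psmd14 was read by 1 probe only.

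Other lid subunits had narrower ranges over the arrays than Psmd6, Psmd8 and Psmd14. Psmd11, which bridges the lid and the alpha ring, gave 20.9 in M1, 7.81 in M2, 7.79 without Lamtor1 and 6.52 with Torin1. Psmd12, a structural subunit, gave 101, 41.9, 46.9 and 29.0. Both were more than 2-fold higher in M1 than in M2, with log2 ratios of 1.42 and 1.27. Psmd3 and Psmd13 are structural subunits too. Psmd3 gave 89.4, 55.0, 59.2 and 52.1, and was nearly level between M2 and Torin1-treated BMDMs (-0.08). Psmd13 gave 30.8, 23.3, 27.2 and 15.4. The genes Psmd5, Psmd9 and Psmd10 encode chaperones of base assembly and are not part of the finished proteasome. Psmd5 gave 5.26, 5.67, 5.25 and 4.68, a narrow range. Psmd9 gave 3.80, 3.55, 4.60 and 2.24, and Psmd10 gave 5.52, 3.93, 4.77 and 6.16. Psmd10 was highest in Torin1-treated BMDMs, but this held for its brighter probe only.

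**Figure D4:**
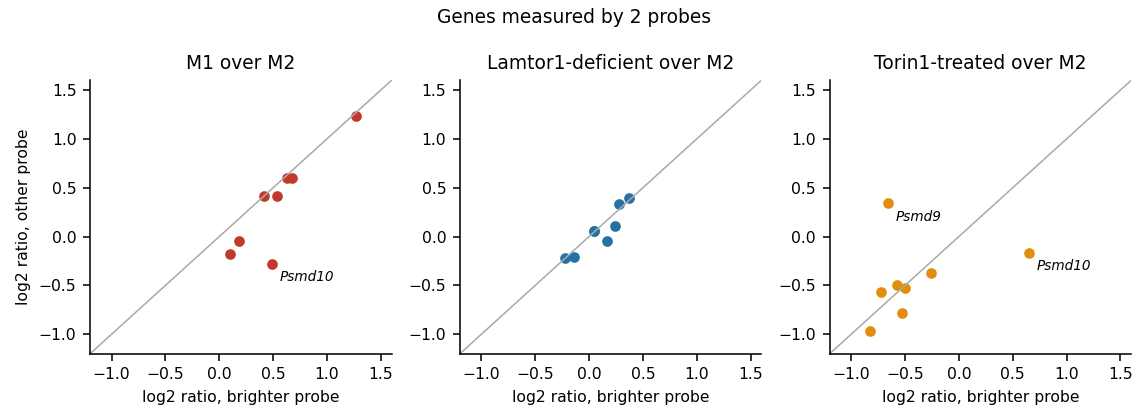
Log2 ratio over M2 by the brighter probe (x axis) and by the other probe (y axis) of the 8 genes with 2 probes, for M1, Lamtor1-deficient and Torin1-treated BMDMs, with the line of equal values. Points lie near the line except Psmd10 in M1 and Psmd9 and Psmd10 in Torin1-treated BMDMs.

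The 8 genes with 2 probes allowed a second reading of the same RNA. For Psma4, Psmb5, Psmc1, Psmc2, Psmc3 and Psmd12 the probes differed by at most 0.23 in M1, 0.20 without Lamtor1 and 0.25 with Torin1. For Psmd9 the Torin1 ratio was -0.66 by the brighter and 0.34 by the other probe. For Psmd10 it was 0.65 and -0.17, and the M1 ratio was 0.49 and -0.28. The direction of both chaperones after Torin1, and of Psmd10 in M1, therefore depended on the probe. For Torin1-treated over Lamtor1-deficient, Psmd9 was at -1.04 by the brighter and -0.05 by the other probe, and Psmd10 was at 0.37 and -0.50, with opposite signs. Smaller ratios also had opposite signs by the 2 probes, namely Psmd9 (0.10 and -0.18) and Psmc3 (0.18 and -0.04) in M1 and Psmd12 (0.16 and -0.04) in Lamtor1-deficient BMDMs. In Lamtor1-deficient BMDMs the probes of these chaperones were close, at 0.37 and 0.39 for Psmd9 and 0.28 and 0.34 for Psmd10.

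The inducible subunits stood apart from most of their constitutive counterparts in M1 and after Torin1. In M1, Psmb8 was 2.41 higher than in M2 on the log2 scale where Psmb5 was 0.42 higher. Psmb9 was 2.62 higher where Psmb6 was 0.86 higher, and Psmb10 was 0.58 higher where Psmb7 was 0.39 higher. After Torin1 the inducible subunits were above M2 and their counterparts at or below it, with Psmb8, Psmb9 and Psmb10 at 0.59, 0.53 and 0.58 and Psmb5, Psmb6 and Psmb7 at -0.58, -0.05 and -0.41. The value of Psmb6 was within 1 technical SD of 0, and its sign changed with the percentile taken over detected probes. In Lamtor1-deficient BMDMs, Psmb8, Psmb9 and Psmb10 were at 0.28, 0.12 and 0.71 and Psmb5, Psmb6 and Psmb7 at 0.04, 0.58 and 0.18. The difference of Psmb9 minus Psmb6 was then -0.46 on the log2 scale, the only pair in the 3 comparisons with M2 in which the inducible subunit had the lower ratio.

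**Figure D5:**
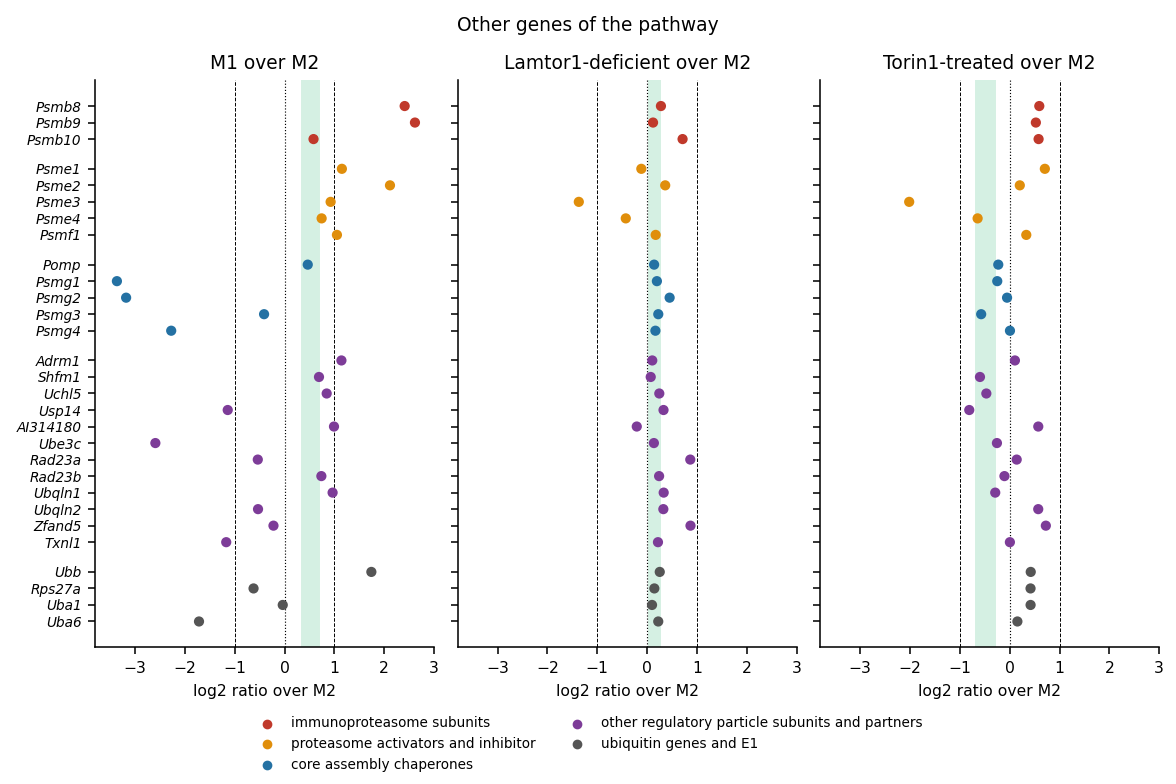
Log2 ratio over M2 (x axes) of the other genes of the pathway, coloured by list, for M1, Lamtor1-deficient and Torin1-treated BMDMs. The green band marks the quartiles of the 34 proteasome genes, the dotted line marks 0 and the dashed lines mark 2-fold. The core assembly chaperones Psmg1, Psmg2 and Psmg4 lie far left in M1, and the activator Psme3 lies left in both other conditions.

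The activators and the inhibitor of the core all stood above the median of all genes in M1, where 3 of 5 were at least 2-fold higher, against 24% of all genes. Psme1 and Psme2, which form the IFNg-inducible activator cap, were at 1.15 and 2.11, and the inhibitor Psmf1 was at 1.05. Psme3, the nuclear activator, gave 119 in M1, 62.5 in M2, 24.2 without Lamtor1 and 15.5 with Torin1. It was the only gene of the 5 at least 2-fold lower in Lamtor1-deficient or Torin1-treated BMDMs, with log2 ratios of -1.37 and -2.02, where 7.34% and 12.7% of all genes were at least 2-fold lower.

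Of the 5 chaperones that assemble the core, 3 were at least 2-fold lower in M1, against 25.9% of all genes, and none was at least 2-fold higher, against 24%. Psmg1, which pairs with Psmg2 to assemble the alpha ring, gave 1.41 in M1 against 14.5 in M2, 16.6 without Lamtor1 and 12.2 with Torin1. Psmg2 gave 0.679 in M1 against 6.15, 8.41 and 5.93. Psmg4 gave 1.18 in M1 against 5.69, 6.38 and 5.71. The M1 signals of all 3 lay apart from the other 3 arrays, at log2 ratios over M2 of -3.36, -3.18 and -2.27. Psmg3, the partner of Psmg4, was at -0.41, and Pomp, which matures the beta ring, was at 0.46. After Torin1 the 5 chaperones ranged from -0.57 (Psmg3) to 0.01 (Psmg4), and none was past 1.5-fold, where 23.2% of all genes were higher and 22.8% lower.

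A further 12 subunits and partners of the regulatory particle had a median of 0.23 in M1, 0.24 without Lamtor1 and -0.05 with Torin1. In M1, Adrm1, a ubiquitin receptor of the base, was at least 2-fold higher (1.14). Usp14, a deubiquitinating enzyme of the base (-1.14), Ube3c, a ubiquitin ligase (-2.59), and Txnl1, a thioredoxin-like partner (-1.17), were at least 2-fold lower. These were 1 and 3 of 12, where 24% and 25.9% of all genes were past 2-fold. After Torin1 none of the 12 was past 2-fold over M2, where 11.6% of all genes were higher and 12.7% lower, and Usp14 was the lowest of them, at -0.81. Of 4 ubiquitin and E1 genes, Ubb, a polyubiquitin gene, was at 1.74 in M1, while Uba6, an activating enzyme, was at -1.72. After Torin1 all 4 stood above the median of all genes, from 0.16 (Uba6) to 0.42 (Ubb), where 31 of the 34 proteasome genes stood below it.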

How the data were processed

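RNA of 4 cultures was hybridised to 4 single-colour Agilent arrays. The authors deposited scanner files with intensities of each spot. The processed signal is background-subtracted and detrended within an array, and is not normalized between arrays. The file headers name Agilent Feature Extraction 10.7.3.1 and the submitters' processing notes 10.5.1.1. A deposited table of the series held the same processed intensities to within 0.497%.

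Following the study's methods, each array was shifted to the 75th percentile of its non-control probes (an intensity of 287 in M1, 595 in M2, 536 without Lamtor1 and 470.0 with Torin1) and log2 values were taken. No probe was under the raw signal threshold of 1. Control and outlier spots were left out, and spots of a probe were averaged. A gene was read by the probe with the highest mean log2 signal over the arrays. All 36 symbols matched the RefSeq gene table. Probe positions come from the annotation of the array (mm9), and where they lie in the transcripts is not given in the sources used here. Precision is limited by 1 array per condition, and no test was made. Of 55681 probes, 50.9% to 55.4% were well above background on an array.

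The members, gene lists and alternatives were chosen with earlier results of these data known, and some genes of the lists are not reported here. Signals on all 4 arrays were given for every detected member, since nearly all met the rule for naming (a catalytic subunit, the highest or lowest ratio of a role group, or a ratio past 1.5-fold). Genes of the proteasome pathway and its regulators were named where past 2-fold, or as immunoproteasome subunits. Psmg3, Pomp, Ngly1, and single marker and housekeeping genes were named outside this rule, after their values were seen, and other marker and housekeeping genes past 2-fold are not named. Alternatives were other scalings, normexp background correction with an offset of 50, other rules for probes, spots and members, the series table, and 1.5-fold in place of 2-fold. Leaving out Psmd6 and Psmd8, and setting the members beside genes of like brightness, were added once values were known. The code was tested on simulated data. Calculations used Python 3.11.15 with NumPy 2.4.6, pandas 2.3.3 and matplotlib 3.10.9, and R 4.3.3 with limma 3.58.1.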

Additional observations from a re-analysis of the deposited data

How the results depend on the processing

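With 1 array per condition, no replicate could be left out. No paired analysis was possible because each condition had 1 array. Over the alternatives run, the core minus the regulatory median ran from 0.0039 (quantile normalization) to 0.15 (normexp) in M1, from 0.03 to 0.085 in Lamtor1-deficient BMDMs, from -0.08 to 0.0007 in Torin1-treated over M2, and from -0.14 to -0.07 in Torin1-treated over Lamtor1-deficient BMDMs. Relative to all genes, the 34 detected members stood 0.29 to 0.46 higher in M1, between -0.05 and 0.07 in Lamtor1-deficient, and between -0.63 and -0.49 in Torin1-treated BMDMs over the scalings, the normexp correction, the outlier spots kept and the series table, with 31 of 34 below the median of all genes after Torin1 in each of these. The median shift and the other 75th percentile could not change these relative values and counts, since they move all genes of an array alike. Shifting each array to its median gave core and regulatory medians of -0.27 and -0.37 for M1 and -0.77 and -0.76 for Torin1-treated over M2. For Torin1-treated over Lamtor1-deficient they were -0.96 and -0.87. The median shift left 3 members with M1 as the highest array. At 2-fold, 1 was higher and 2 lower in M1, and 0 higher and 6 lower in Torin1-treated over M2. In Torin1-treated over Lamtor1-deficient, 14 were lower (5 of all 36 otherwise). The median log2 ratio of all genes was then -0.78, -0.23 and -0.40 in these comparisons. Shares of all genes past a threshold, or with M1 as the highest array, were counted only under the 75th percentile of all probes. The counts under other scalings therefore have no share beside them. Quantile normalization gave 0.34 and 0.33 for M1, -0.006 and -0.0366 for Lamtor1-deficient, and -0.53 and -0.40 for Torin1-treated over Lamtor1-deficient, with 2 members at least 2-fold lower in M1 and 3 lower in Torin1-treated over Lamtor1-deficient. A 75th percentile taken over detected probes only gave -0.49 and -0.40 for the last comparison, with 3 members lower. The normexp correction gave 0.33 for the regulatory median in M1. Counted over all 36 genes, 6 were at least 2-fold higher in M1 and 2 in Lamtor1-deficient BMDMs, against 24% and 7.08% of all genes. They include Psmb11 in M1 and Psma8 in Lamtor1-deficient BMDMs, neither of them well above background in both conditions. The Lamtor1-deficient count was 1 with the normexp correction, over the detected members, over the standard subunits, or without Psmd6 and Psmd8. Over the standard subunits, 3 were at least 2-fold lower in Torin1-treated over Lamtor1-deficient, against 12% of all genes. Without Psmd6 and Psmd8, 0 were at least 2-fold higher after Torin1 and 0 lower in M1, against 11.6% and 25.9% of all genes. At 1.5-fold, 16 were higher in M1, 3 higher and 15 lower after Torin1, and 21 lower in Torin1-treated over Lamtor1-deficient. The shares of all genes were 35.3%, 23.2%, 22.8% and 25.3% in this order. The cause of these shifts was not tested, beyond the fewer members or lower threshold that some alternatives set by construction. Of 144 single ratios, the sign differed in 26 with the median shift, 15 with quantile normalization, 6 with the other 75th percentile, 3 with normexp and 2 with the mean of all probes. Depth here is signal over background, which limited Psma8 and Psmb11 only.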

Other observations

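Among 10 known regulators of proteasome transcription, 4 were at least 2-fold higher in M1 than in M2, where 24% of all detected genes were. Nfe2l1, the factor that induces subunit genes when the proteasome is inhibited, gave a normalized signal of 1.65 in M1, 0.496 in M2, 0.718 without Lamtor1 and 0.493 with Torin1. Its log2 ratio was 1.74 in M1 and -0.01 after Torin1. The genes of the small Maf proteins that pair with it had higher RNA signals in M1, at 2.24 for Mafg, 3.07 for Mafk and 4.46 for Maff. Maff gave 10.9, 0.499, 7.39 and 4.06 in the order M1, M2, Lamtor1-deficient, Torin1-treated, so it was low in M2 alone. Vcp, which extracts Nfe2l1 from the endoplasmic reticulum, was the lowest of the 10 after Torin1 (-0.71) and Ngly1, which removes its sugars, was the lowest in M1 (-0.71). The relation of these genes to the subunit genes was not tested.

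The median log2 ratio of 9 housekeeping genes was -0.40 in M1, 0.12 without Lamtor1 and -0.21 with Torin1, with ranges from -3.60 (Gusb) to 1.39 (B2m) in M1 and from -1.31 (Gusb) to 0.52 (B2m) after Torin1.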
